A study of Sus scrofa with 8 samples.

Results

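The genes described here build and run the secretory pathway, the route by which a liver cell makes, sorts and exports its plasma proteins. Liver RNA came from female domestic pigs (Sus scrofa), either lactating or not lactating, which serve as the control group, and the comparison asks how lactation changes liver transcript levels. Equal amounts of RNA from 2 sows made 1 pool, and 4 pools per group (8 sows) were each hybridised to 1 Affymetrix Porcine array, for 16 sows in all. Pools are the replicates, n is 4 per group throughout, and pooling hides the spread between single animals. The labels used here give no breed, age or day of lactation. A gene was a member when its symbol in the deposited table began with SEC, SSR, SRP, ARF or RAB and a digit, or with COPA, COPB, COPE, COPG, COPZ or TMED, and the brightest of its probe sets over the 8 arrays stood for it. This gave 29 of 8238 gene symbols. Many pig genes still carried provisional LOC names in that table, and 30 further genes carry such a symbol only in the current Sscrofa11.1 gene tables, among them the signal recognition particle gene SRP14, the GTPase gene ARF4 and all 4 TMED genes. They are kept apart below as genes with an updated symbol. All 59 were measured, and no filter on low signals was applied.

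Secreted proteins begin in the endoplasmic reticulum (ER). The signal recognition particle (SRP) brings ribosomes to the membrane, the SEC61 channel lets the growing chain through, and signal peptidase and the translocon-associated SSR proteins act beside the channel. COPII coats then bud carriers from the ER, COPI coats built with ARF GTPases return membrane and escaped proteins from the Golgi, TMED proteins act as cargo receptors in both, and RAB GTPases mark the membranes that each carrier leaves or reaches. Hepatocytes are professional secretory cells, and albumin, apolipoproteins and most clotting factors leave them by this route.

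Transcripts of this pathway lay mostly higher in lactating liver, by small amounts. Of the 29 genes, 6 rose in lactation and 0 fell (limma, p-values adjusted by Benjamini and Hochberg over all 23999 probe sets, threshold 0.05), against 6.08% of all genes that rose and 2.52% that fell (8.61% in either direction). The 6 were SEC61A1, the pore-forming alpha subunit of the SEC61 channel, SEC24C and SEC23IP of COPII, COPB1 and COPZ1 of COPI, and RAB32. The log2 difference of signals, lactating minus non-lactating, was positive in 26 of 29 genes, against 52.4% of all genes, and its median was 0.26, against 0.01 over all genes. In 13 of the 29 every lactating pool lay above every non-lactating pool, and in 0 the reverse, against 12.7% and 6.49% of all genes. At an unadjusted limma p below 0.05 stood 16 of the 29, and 27.3% of all genes. In the authors' deposited table, 17 of the 29 had an unadjusted p below 0.05, all of them higher. Of all 8238 genes, 1336 were higher and 752 lower at that threshold, 25.3% in either direction.

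**Figure D1:**
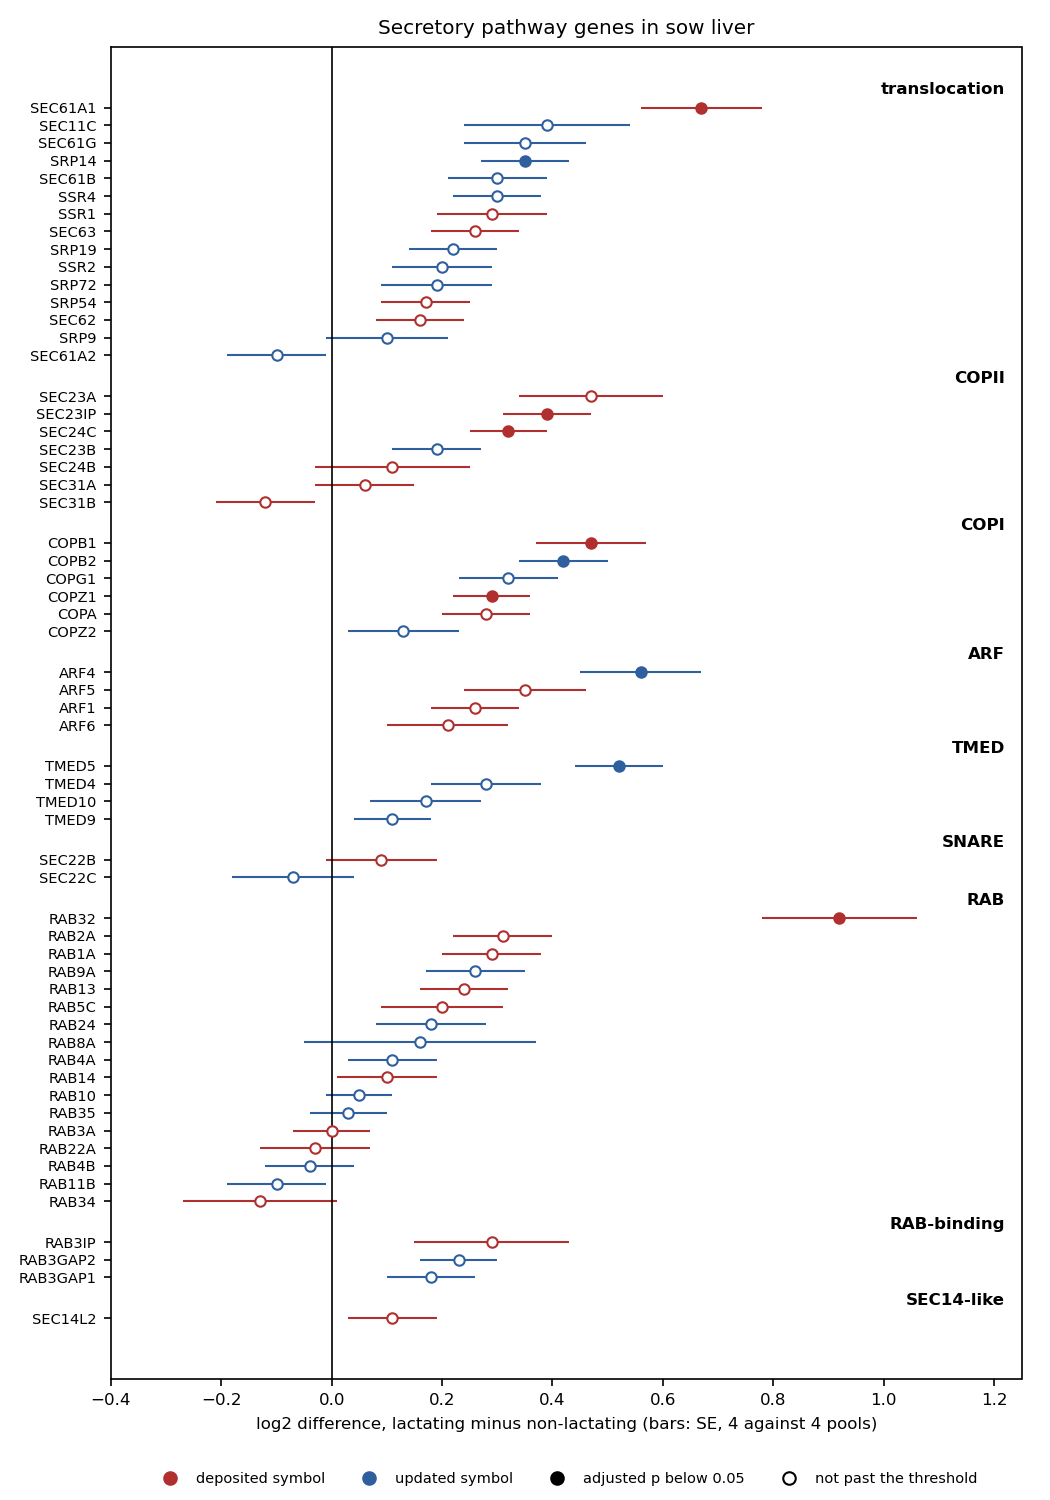
Log2 difference of signal between lactating and non-lactating pools (x axis, with the standard error, 4 against 4 pools) for 59 secretory pathway genes by group. Red marks the 29 genes with a deposited symbol and blue the 30 with an updated symbol, and filled points passed the threshold; 52 of the 59 lie to the right of zero.

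The genes with an updated symbol gave 4 of 30 higher and 0 lower, against 6.11% and 2.52% of all genes by updated symbol (8.63% in either direction), with ARF4, COPB2, SRP14 and TMED5 as the 4. Their median difference was 0.19, 26 of the 30 were positive against 52.6% of all genes, and in 11 every lactating pool lay above every non-lactating one, against 12.8%. Most of the 29 genes are brightly expressed, and in a comparison added after the values had been seen, bright genes as a whole leaned upward. At a mean log2 signal of 8 or more, 10.2% of 3783 genes rose, as did 5 of the 23 secretory genes at that level. Of the 1400 genes with a mean log2 signal of 10 or more, 65.8% had a positive difference, 11.1% rose and the median was 0.09. Of the 29 genes, 15 were that bright, and all 15 were positive, 3 of them past the threshold, with a median of 0.26.

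The counts depended on the pools in the fit, as did those over all probe sets. Of 23999 probe sets, 1643 passed with all 8 pools and 406 to 1424 with a single pool left out. SEC61A1 and RAB32 passed the threshold with any single pool left out, and they were the only 2 of the 29 that passed without non-lactating pool 1, non-lactating pool 4, or lactating pool 2, 3 or 4. Without non-lactating pool 3 there were 3, without non-lactating pool 2 there were 5, and without lactating pool 1 there were 6. Those 6 were not the original 6, since SEC24C was lost there. SEC24C and COPZ1 each passed in 1 of the 8 fits, SEC23IP in 2 and COPB1 in 3. Their differences moved little, from 0.30 to 0.36 for SEC24C and from 0.41 to 0.52 for COPB1. Of the genes with an updated symbol, TMED5 passed in all 8 such fits, and 1 of 30 passed without non-lactating pool 1 or pool 4.

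Translocation into the ER was represented by 5 genes with a deposited symbol, all with positive differences, a median of 0.26 and 1 past the threshold. Of all genes, 52.4% were positive and 6.08% rose. SEC61A1 aligned to chromosome 13, positions 59785904 to 59787663, minus strand, in the deposited table (the assembly behind this and later positions is not given in the sources used here). Its log2 signal was 10.24, 10.55, 10.45 and 10.26 in non-lactating pools 1 to 4 and 10.97, 11.23, 10.86 and 11.11 in lactating pools 1 to 4. The groups did not overlap, and the lowest lactating pool stood clear of the highest non-lactating one. SEC61A1 rose by 0.67 ± 0.11 (SE), or 1.59-fold (limma adjusted p = 0.0127). SEC63, a partner of the channel that recruits the chaperone BiP, stood at 10.33 to 10.49 without and 10.54 to 10.74 with lactation, which left no overlap, yet its difference of 0.26 ± 0.08 (SE) did not pass (limma adjusted p = 0.0666). The same held for SSR1, the alpha subunit of the translocon-associated complex, at 0.29 ± 0.10 (SE, limma adjusted p = 0.101). SEC62, which works with SEC63 on short secretory proteins, and SRP54, the SRP subunit that binds signal peptides, had differences of 0.16 and 0.17 with overlapping groups.

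The 10 translocation genes with an updated symbol added further subunits of the channel, the particle, the SSR complex and signal peptidase. Of them, 9 were positive, with a median of 0.26, against 52.6% of all genes by updated symbol, of which 6.11% rose. SRP14, which with SRP9 holds up elongation while the ribosome is being targeted (chromosome 1, positions 137755163 to 137758886, minus strand), rose by 0.35 ± 0.08 (SE, limma adjusted p = 0.0290). Its values were 9.97, 10.06, 9.93 and 9.86 in non-lactating and 10.27, 10.29, 10.23 and 10.42 in lactating pools, without overlap. The small channel subunits SEC61B and SEC61G had 0.30 ± 0.09 and 0.35 ± 0.11 (SE each), again without overlap between the groups, and did not pass (limma adjusted p = 0.0686 and 0.0802). SSR4 had 0.30 and SSR2, a bright gene at 12.03 to 12.41 over the 8 pools, had 0.20. SEC11C, a catalytic subunit of signal peptidase, gave 0.39 ± 0.15 (SE), with non-lactating pool 2 at 11.53 above lactating pools 2 and 3 at 11.37 and 11.46. The SRP genes SRP19, SRP72 and SRP9 ranged from 0.10 to 0.22. SEC61A2, the second alpha isoform of the channel, was the single negative one, at -0.10 ± 0.09 (SE, limma adjusted p = 0.582).

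COPII genes were divided. Of 6, 5 had positive differences (52.4% of all genes did), 2 rose (6.08% of all genes did) and the median was 0.22. SEC24C, a cargo-binding coat subunit (chromosome 14, positions 79799162 to 79801477, plus strand), had log2 signals of 10.01, 10.13, 9.96 and 10 in non-lactating and 10.38, 10.39, 10.33 and 10.29 in lactating pools. SEC23IP, a SEC23 partner at ER exit sites (chromosome 14, positions 135796936 to 135798136, plus strand), had 9.67, 9.58, 9.55 and 9.35 against 9.86, 10, 9.91 and 9.94. Neither gene showed overlap, and both varied little among the lactating pools. SEC24C rose by 0.32 ± 0.07 (SE) and SEC23IP by 0.39 ± 0.08 (SE), each with a limma adjusted p of 0.0279. SEC23A, an inner coat subunit, had the largest difference of the 6 at 0.47 ± 0.13 (SE), but lactating pool 1 at 10.93 lay just below non-lactating pool 2 at 10.94, and it did not pass (limma adjusted p = 0.0644). The outer coat subunits SEC31A and SEC31B stood at 0.06 ± 0.09 and -0.12 ± 0.09 (SE each), with overlapping groups. SEC24B, a further cargo adaptor, had 0.11 ± 0.14 (SE), and SEC23B, named by its updated symbol, had 0.19 ± 0.08 (SE, limma adjusted p = 0.202).

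All COPI genes pointed upward. The 3 with a deposited symbol had every lactating pool above every non-lactating one, as did 12.7% of all genes. Their median was 0.29, and 2 of them rose, against 6.08% of all genes. With a single pool left out, 0 to 2 of them passed. COPB1, the beta coat subunit (chromosome 2, positions 41828309 to 41839275, plus strand), had log2 signals of 10.37, 10.65, 10.66 and 10.33 in non-lactating and 10.95, 11.15, 10.9 and 10.9 in lactating pools. COPZ1, the zeta subunit (chromosome 5, positions 18080358 to 18100099, plus strand), had 9.54, 9.73, 9.67 and 9.63 against 9.84, 9.96, 9.97 and 9.96. Lactating pool 1 was the lowest of its group for COPZ1, although still above every non-lactating pool. COPB1 rose by 0.47 ± 0.10 (SE, limma adjusted p = 0.0294) and COPZ1 by 0.29 ± 0.07 (SE, limma adjusted p = 0.0441). COPA, the alpha subunit, had a similar 0.28 ± 0.08 (SE) but did not pass (limma adjusted p = 0.0639). Among the 3 with an updated symbol, COPB2, the beta prime subunit (chromosome 13, positions 65332810 to 65333619, minus strand), rose by 0.42 ± 0.08 (SE, limma adjusted p = 0.0186), from 6.94, 7.1, 6.98 and 6.93 to 7.43, 7.4, 7.52 and 7.28. COPG1, a gamma subunit, had 0.32 ± 0.09 (SE, limma adjusted p = 0.0635), and COPZ2, the other zeta subunit, 0.13 ± 0.10 (SE).

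The ARF GTPases recruit COPI and other Golgi coats when bound to GTP. They had positive differences in all 4 genes, 3 by deposited and 1 by updated symbol. Among all genes, 52.4% by deposited and 52.6% by updated symbol were positive, and 6.08% and 6.11% rose. ARF4 (chromosome 13, positions 32993712 to 33013751, minus strand) rose by 0.56 ± 0.11 (SE), or 1.48-fold (limma adjusted p = 0.0185). Its log2 signal was 11.73, 11.83, 11.81 and 11.73 in non-lactating and 12.15, 12.35, 12.63 and 12.22 in lactating pools, with pool 3 highest. ARF1, the main Golgi ARF, had 0.26 ± 0.08 (SE) without overlap (limma adjusted p = 0.0923), and ARF5 had 0.35 ± 0.11 (SE, limma adjusted p = 0.0937). ARF6, which acts at the plasma membrane rather than the Golgi, had 0.21 ± 0.11 (SE, limma adjusted p = 0.288).

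TMED genes, all named by updated symbol, were positive in 4 of 4 cases with a median of 0.23. Of all genes by updated symbol, 52.6% were positive and 6.11% rose. TMED5 (chromosome 4, positions 128212768 to 128213462, plus strand) had log2 signals of 11.47, 11.5, 11.5 and 11.32 in non-lactating and 12.01, 12.01, 11.96 and 11.87 in lactating pools. It rose by 0.52 ± 0.08 (SE), or 1.43-fold, with the lowest adjusted p of the 59 genes (limma, 0.0116). TMED10, the p24 protein that is brightest here, had 0.17 ± 0.10 (SE, limma adjusted p = 0.315), and TMED9 had 0.11 ± 0.07 (SE) with every lactating pool above every non-lactating one, from a tight 10.44 to 10.51 against 10.26 to 10.42. TMED4 had 0.28 ± 0.10 (SE, limma adjusted p = 0.140).

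**Figure D2:**
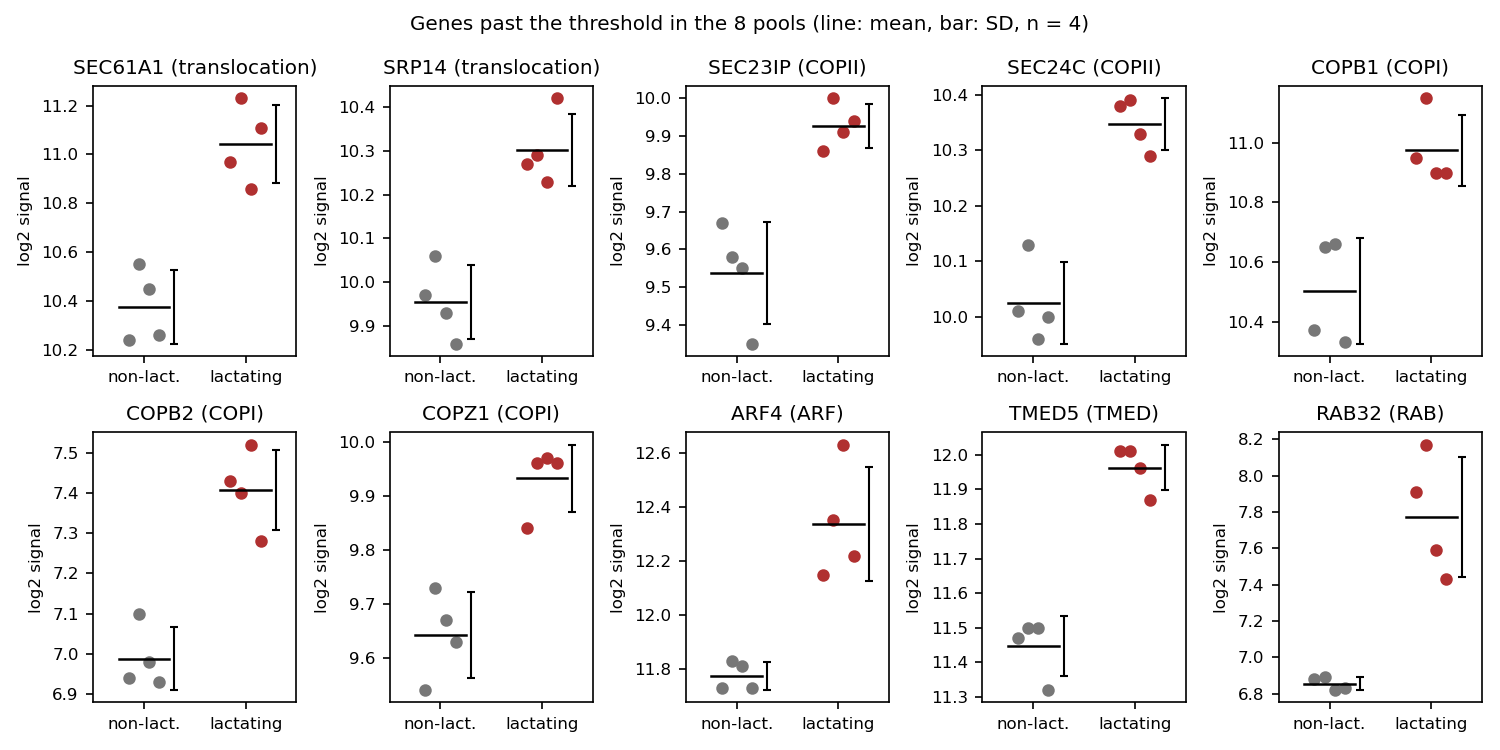
Log2 signal (y axis, a separate range in each panel) of the 10 genes past the threshold in the 4 non-lactating (grey) and 4 lactating (red) pools, with mean (line) and SD (bar). No panel shows overlap; the widest gap between means is that of RAB32, whose lactating pools spread from 7.43 to 8.17.

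RAB GTPases did not move as a block. Of 9 with a deposited symbol, 7 were positive, 1 rose (6.08% of all genes did) and the median was 0.20. That median was 0.043 with the RNA integrity covariate described below and 0.13 without non-lactating pool 4. Of 8 with an updated symbol, 6 were positive, 0 passed (limma; 1 had an unadjusted p below 0.05) and the median was 0.08. RAB32, which is found at contacts of ER and mitochondria and on lysosome-related organelles (chromosome 1, positions 19986777 to 20008091, plus strand), showed the largest difference of all 59 genes. Its log2 signal was 6.88, 6.89, 6.82 and 6.83 in non-lactating pools and 7.91, 8.17, 7.59 and 7.43 in lactating pools. The non-lactating pools were almost alike, with an SD of 0.04, and the lactating pools varied more, with an SD of 0.33. RAB32 rose by 0.92 ± 0.14 (SE), or 1.89-fold (limma adjusted p = 0.0127).

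By the station at which each RAB is known to work, the ER and Golgi RABs RAB1A and RAB2A, which serve traffic between these organelles, had 0.29 and 0.31 (SE 0.09 each) without overlap, and neither passed (limma adjusted p = 0.0755 and 0.0728). RAB34, a Golgi-associated RAB at low signal, had -0.13 ± 0.14 (SE). The exocytic RABs RAB13, RAB8A, RAB10 and RAB3A ran from 0.24 for RAB13, where the groups did not overlap (limma adjusted p = 0.0944), down to 0.00 for RAB3A, the RAB of neuronal vesicles, at a low 6.11 to 6.23 in all 8 pools. The 7 early and recycling endosome RABs (RAB5C, RAB4A, RAB14, RAB35, RAB22A, RAB4B and RAB11B) lay between -0.10 for RAB11B and 0.20 for RAB5C, all with overlapping groups and a median of 0.03. RAB9A, which returns receptors from late endosomes to the Golgi, had 0.26 ± 0.09 (SE, limma adjusted p = 0.126), and RAB24, linked to autophagy, 0.18 ± 0.10 (SE). The differences between these stations were not tested.

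The remaining members were few. RAB3IP, an activator of RAB8, had 0.29 ± 0.14 (SE), with lactating pools 1 and 4 at 9.03 and 8.86 above all others and pools 2 and 3 inside the non-lactating range. RAB3GAP1 and RAB3GAP2, both named by updated symbol, are the subunits of a complex that acts on RAB3 and RAB18, and had 0.18 and 0.23 without overlap between the groups (limma adjusted p = 0.183 and 0.0987). SEC14L2, a lipid-binding protein that shares only its prefix with the pathway, had 0.11 ± 0.08 (SE). SEC22B, a SNARE for fusion between ER and Golgi membranes, and its relative SEC22C had 0.09 ± 0.10 and -0.07 ± 0.11 (SE each), both with overlap.

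In 7 pairs of close paralogs, the difference between the paralogs' changes was set against the pools after the values had been seen. SEC61A1 exceeded SEC61A2 by 0.77 ± 0.11 (SE, n = 4 pools per group) in its change, without overlap, which gave the smallest p that 4 against 4 pools allow (exact permutation test, 2-sided p = 0.0286, adjusted over the 7 pairs 0.200). SEC23A exceeded SEC23B by 0.28 ± 0.16 (SE) and SEC31A exceeded SEC31B by 0.19 ± 0.12 (SE), while SEC24B lay below SEC24C by 0.22 ± 0.14 (SE). Adjusted p-values ran from 0.200 to 0.229 (exact permutation). With 4 pools per group no exact p can fall below 0.0286, even for a fully separated pair. The adjusted values therefore do not show that paralogs changed alike.

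Several genes were read by more than 1 probe set, and here the reading depended on the probe set. For 17 of the 59 genes there were 27 other probe sets, of which 22 gave the same sign as the brightest and 5 the opposite. Of the 27, 16 gave a larger difference than the brightest one and 8 passed the threshold, against 6.85% of all probe sets. SEC22B is the clearest case: its brightest probe set gave 0.09, and the others gave 0.41, 0.37 and 0.74, each without overlap between groups, the first and last of them past the threshold (limma adjusted p = 0.0318 and 0.0431). SEC23A gave 0.85 ± 0.15 (SE) on its second probe set (limma adjusted p = 0.0172). RAB10 gave 0.54 against 0.05 on the brightest, SRP72 0.58 against 0.19, and TMED4 0.40 and 0.70 against 0.28, each of these other readings past the threshold. In the other direction, the 2 other SEC61A1 probe sets, at mean signals of 5.58 and 5.10, gave 0.02 and 0.06, so that with all 3 averaged SEC61A1 no longer passed (0.25, limma adjusted p = 0.0823). The 3 others of TMED5, at mean signals of 10.65, 5.71 and 4.42, gave 0.19, 0.30 and 0.42 without passing. The first of these is bright too, and its groups overlapped (limma adjusted p = 0.332). With all 4 averaged TMED5 no longer passed either (0.36, limma adjusted p = 0.0782). By the same averaging SEC23A (0.66, limma adjusted p = 0.0260) and SEC22B (0.40, limma adjusted p = 0.0418) passed. COPB1 passed on both of its probe sets.

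**Figure D3:**
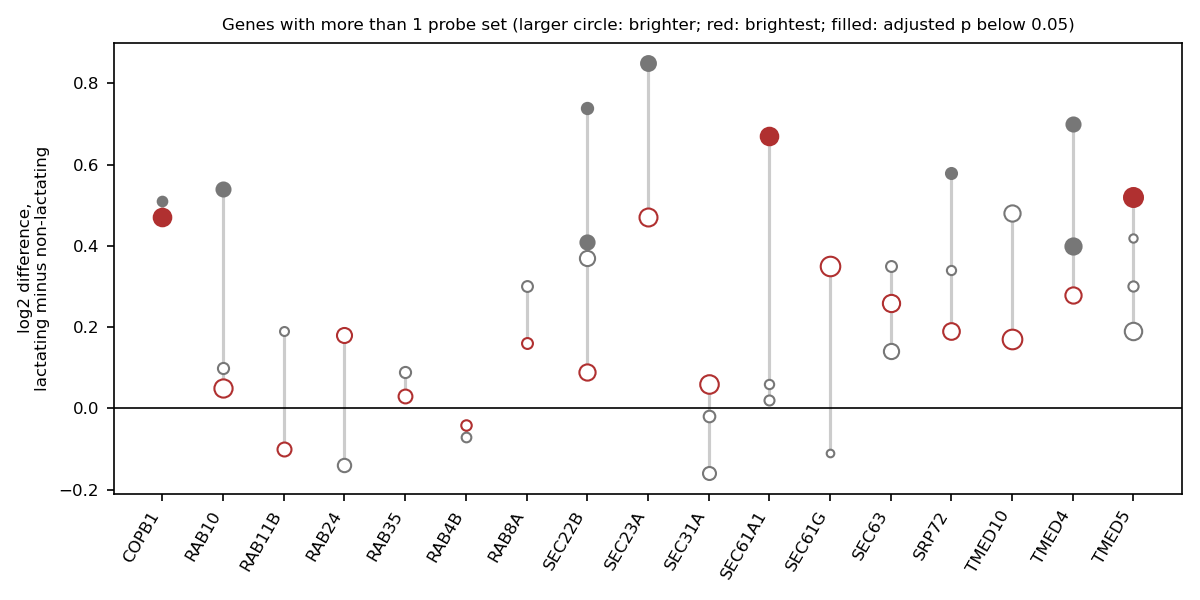
Log2 difference between lactating and non-lactating pools (y axis) for each probe set of the 17 genes that had more than 1, with the brightest in red, circle size rising with mean signal, and filled circles past the threshold. SEC22B, SEC23A, RAB10, SRP72 and TMED4 have an unfilled brightest circle and at least 1 filled other circle.

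The lowest of the 8 values fell in a non-lactating pool for 27 of the 29 genes, in pool 4 for 12 and in pool 1 for 8. The highest fell in a lactating pool for 24, spread over pools 1 to 4 as 6, 9, 7 and 2. For the 30 genes with an updated symbol, non-lactating pool 4 was lowest for 16, pool 3 for 8 and pool 1 for 1. The same counts over all genes were not taken. The mean RNA integrity reading described below was 5.02 and 4.49 in non-lactating pools 1 and 4, and 4.21 and 4.14 in pools 2 and 3. Its part in these counts was not tested. Taken as a mean deviation from each gene's own level over the 8 pools, the 29 genes stood at -0.13, -0.05, -0.12 and -0.18 in non-lactating pools 1 to 4 and at 0.12, 0.14, 0.12 and 0.11 in lactating pools 1 to 4. Non-lactating pool 2 thus lay nearest to the lactating group, and the lactating pools were nearly equal. The 15 translocation genes of both kinds ran from -0.23 to 0.01 in non-lactating and from 0.11 to 0.16 in lactating pools. The 6 COPI genes peaked in lactating pool 2, at 0.26, and the 4 ARF genes in lactating pool 3, at 0.29. These are descriptions, since the genes of a group share the same arrays.

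**Figure D4:**
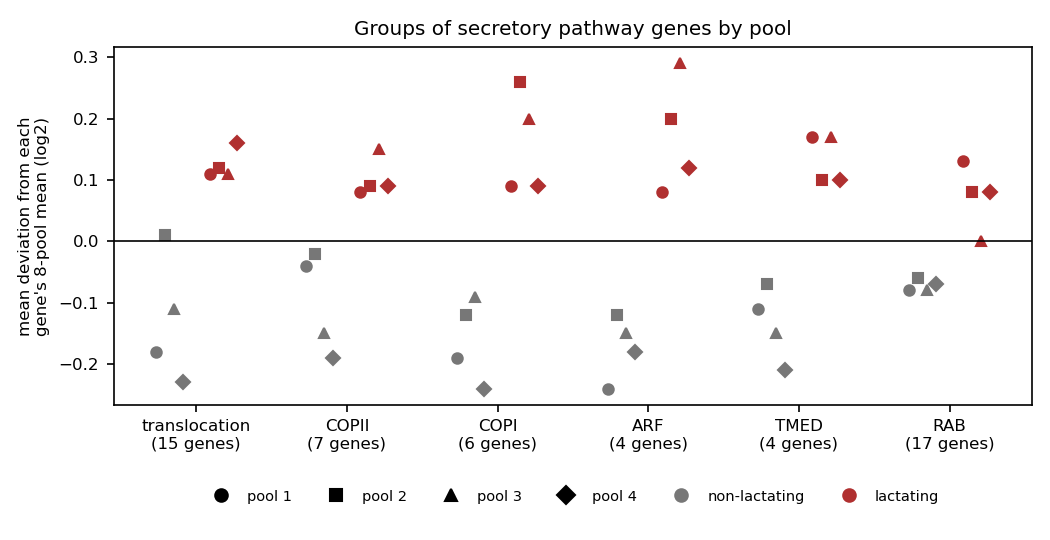
Mean deviation (log2, y axis) of each group of genes from every gene's own mean over 8 pools, for non-lactating (grey) and lactating (red) pools, with the pool number as the marker shape. Both kinds of symbol are combined. Of the 6 groups drawn, the RAB genes have the narrowest range, from -0.08 to 0.13, and their mean is taken over the most genes, 17.

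Partners of these proteins, from lists chosen with earlier results of these data known, were set against all genes by updated symbol, of which 52.6% were positive, 6.11% rose and 2.52% fell. Of 22 measured partners at the translocon, 19 were positive, 6 rose and 0 fell, with a median of 0.23. Those that rose were OSTC, DAD1, STT3A and STT3B of the oligosaccharyltransferase, at 0.61, 0.52, 0.40 and 0.35, and the signal peptidase subunits SPCS3 and SPCS1, at 0.77 and 0.48. Of 41 partners in ER export and retrieval, 36 were positive, 8 rose and 0 fell, with a median of 0.18. KDELR3, a receptor that returns ER residents, rose by 1.05 ± 0.21 (SE, limma adjusted p = 0.0219). LMAN1, a cargo receptor for clotting factors, rose by 0.85, ARFGAP3, which switches ARF off, by 0.81, the fusion regulator SCFD1 by 0.64, SAR1A, the GTPase that starts the COPII coat, by 0.45 and the SNARE BNIP1 by 0.37. The SNARE BET1 and the golgin GOLGA5, outside the rule for named genes, were the other 2. Only the brightest probe set of each partner was read, although KDELR3, ARFGAP3, GOLGA5, SPCS3, SPCS1 and STT3A had 2 each. Among 13 regulators of the RAB cycle, such as the RAB carrier GDI2 at 0.24 ± 0.09 (SE), 8 were positive and 0 passed (limma; 2 had an unadjusted p below 0.05), with a median of 0.10.

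Some features of the RNA differed along with lactation. Array means ran from 6.78 to 6.79. The 3' minus 5' log2 signal of control transcripts, a reading of RNA integrity averaged over GAPDH, actin and EF1a, was 4.47 ± 0.40 (SD, n = 4) without lactation and 3.75 ± 0.29 (SD, n = 4) with it. Taken singly, GAPDH did not overlap between the groups, while actin and EF1a did (exact permutation test, 2-sided p = 0.0571 and 0.0857). The mean over these transcripts did not overlap (exact permutation test, 2-sided p = 0.0286). Its part thus cannot be told apart from that of lactation. With this mean as a covariate, 0 of 23999 probe sets passed limma's threshold (2474 had an unadjusted p below 0.05), standard errors of the 29 genes rose by a median factor of 1.57, 27 of the 29 kept their sign, their median was 0.18 and 9 had an unadjusted p below 0.05. The difference went from 0.67 to 0.53 for SEC61A1, from 0.92 to 1.19 for RAB32 and from 0.29 to 0.18 for COPZ1. Hepatocyte markers fitted the labelled tissue, with ALB at a mean of 15.2 in both groups. The highest log2 signal of any probe set was 15.22, so ALB stood at the top of the range. Its equal means therefore say little about hepatocyte content. Of 6 of them, 1 fell (SERPINA1, -0.32, limma adjusted p = 0.0212), and their mean level was 14.57 to 14.63 without and 14.61 to 14.65 with lactation. Of 8 endothelial markers 0 were positive and 4 fell (2.52% of all genes did), with a mean level of 7.40 to 7.50 in non-lactating and 7.11 to 7.26 in lactating pools. Of 8 stellate and fibroblast markers 2 fell, with 8.48 to 8.78 against 8.13 to 8.60, and of 7 macrophage markers 0 passed (limma; 3 had an unadjusted p below 0.05), with 8.82 to 9.04 against 8.68 to 8.91. Of 8 T and NK cell markers CD8A fell, with 5.63 to 5.74 against 5.48 to 5.64. Of 3 B and plasma cell, 5 cholangiocyte and 1 erythroid markers 0 passed (limma; 0 had an unadjusted p below 0.05), and their mean levels were 5.11 to 5.64 against 5.12 to 5.42, 5.94 to 6.91 against 6.23 to 6.49, and 3.66 to 4.06 against 3.55 to 3.89. In whole tissue, fewer cells of a type and less RNA per cell cannot be told apart, and the part of these markers in the results was not tested.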

How the data were processed

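Total RNA of sow liver was hybridised to Affymetrix Porcine arrays, 1 per pool. For 24123 probe sets the deposited table holds log2 signals that the authors made with Affymetrix Expression Console and RMA per the submitters' processing notes (versions not given in the sources used here); RMA makes the arrays' distributions equal, so differences are relative to each array as a whole. The deposited table also holds an unadjusted equal-variance p-value per probe set, recomputed here to within 6.11e-09. After 124 Affymetrix controls were left out, 23999 probe sets were fitted with limma 3.58.1 (lmFit, eBayes) in R 4.3.3 on group alone. Symbols were updated through Entrez identifiers (9065 probe sets), RefSeq transcripts (29) or accessions (6) of the Sscrofa11.1 tables. A further 2133 probe sets were placed by none of these and kept their deposited symbol. Depth does not apply to arrays; their number limits the precision. No scan dates were used here.

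Tested on simulated data, limma recovered 44% of 100 probe sets changed by 0.5 and 86% of 100 changed by 1 on the log2 scale. These were the only changed probe sets among 23999, with independent normal noise. In the data 1643 passed, so the adjusted threshold was less strict, and the median difference of the 29 genes, 0.26, lay below both sizes. The recovery rates therefore do not carry over to the members. Members, lists and tests were chosen with earlier results of these data known. Named were members past the threshold, the 3 brightest and both extremes of each group, a fixed set of core genes, and up to 6 partners past the threshold per list; the other members are given because all are accounted for. Alternatives covered normalisation, filter, variance model, block, probe set, symbols, test, integrity and pools left out. Promoter motifs were not analysed here. Nothing in the labels says that equal pool numbers are pairs, so numbers were not treated as pairs. Same-numbered pools deviated with correlations of 0.0724 to 0.243 across probe sets, all positive, and differently numbered pools with -0.233 to 0.236. These values do not exclude a pairing, and a fit with pool number as a block is given below. Probes of close paralogs such as ARF and RAB genes can cross-hybridise.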

Additional observations from a re-analysis of the deposited data

Results flagged for a closer look

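Among 84 groups of 4 pools of the named genes, 5 had a pool far from the other 3, and chance alone gives about 1 in 20. COPZ1 stood at 9.84 in lactating pool 1 against 9.96 to 9.97 in the others. RAB34 stood at 7.1 in non-lactating pool 4 against 6.52 to 6.60, and at 6.29 in lactating pool 1 against 6.64 to 6.69. SEC22B stood at 10.01 in lactating pool 3 against 9.82 to 9.85. TMED5 stood at 11.32 in non-lactating pool 4 against 11.47 to 11.50. Of these genes COPZ1 and TMED5 passed the threshold; COPZ1 lost it without any pool other than lactating pool 1, and TMED5 kept it with any single pool left out but not with its 4 probe sets averaged (limma adjusted p = 0.0782).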

How the results depend on the processing

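The 29 genes gave 6 past the threshold, all higher, with the series matrix values, robust variances, the dimmest probe sets left out and pool number as a replicate block, where 1 COPI gene passed instead of 2 and 1 ARF gene instead of 0. The count was 5 with cyclic loess and with an intensity trend (1 COPI gene each). With cyclic loess the median difference was 0.20 in place of 0.26, with 0.19 for ARF and 0.15 for genes with an updated symbol. With updated symbols, 10 genes were higher, with a median of 0.21, 2 translocation genes, 1 ARF gene and a RAB median of 0.11; more genes entered. With all probe sets of a gene averaged, 0 translocation genes passed, since the dim SEC61A1 probe sets entered its mean, and the genes with an updated symbol had a median of 0.23. With the 3' minus 5' covariate 0 passed in every group, with medians of 0.18 for all 29 and for translocation, 0.16 for ARF, 0.043 for RAB, 0.27 for COPII and 0.34 for COPI. The authors' deposited p-values gave 0 calls in every group after Benjamini-Hochberg adjustment, since 0 of 23999 probe sets passed (4964 had an unadjusted p below 0.05), and unadjusted 17 of 29 (translocation 5, ARF 2, RAB 4) and 16 of the 30 others. With single pools left out, the calls ran from 2 to 6 of the 29, 0 to 2 in COPI and in COPII, and 1 to 5 of the 30, and the medians from 0.20 to 0.27 for the 29, 0.19 to 0.29 for COPII, 0.13 to 0.23 for RAB and 0.18 to 0.23 for the 30. Over all 23999 probe sets, the calls with a single pool left out ran from 406 to 1424, against 1643 with all pools. Under all of these settings 0 members fell. Median centring gave 7 of the 29. Non-lactating pools 1 and 3 correlated best with their own number among the lactating pools, pools 2 and 4 with another (0.157 against 0.0896, and 0.236 against 0.221). Of the 59 genes, 13 changed sign under at least 1 setting, none of them past the threshold: RAB10 (-0.0192) and SEC31A (-0.0052) with cyclic loess, RAB11B (0.0439) and SEC31A (-0.0365) with averaged probe sets, RAB11B (0.0184), SEC61A2 (0.0132), RAB14 (-0.0348), RAB3A (-0.0691) and SRP9 (-0.1905) with the covariate, RAB3A, RAB22A, SEC22C, RAB35 and SEC24B (-0.0231 to 0.0354) with a single pool left out, RAB34 without non-lactating pool 4 (range over single pools left out -0.1858 to 0.0062) and RAB8A without lactating pool 4 (range -0.0181 to 0.3025).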
